A study of Xenopus laevis and Xenopus tropicalis with 12 samples.

Results

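Rab, Arf and Arl proteins are the small GTPases of membrane traffic. All gene models whose annotated symbol is rab, arf or arl followed by a number and at most a letter and a digit were taken, which gave 72 of the 28165 models (51 Rab, 5 Arf and 16 Arl). Models with a dotted symbol, such as arf6.2 or rab11b.1, do not match that pattern and are not counted here. Each of these proteins switches between a GDP-bound resting state and a GTP-bound active state. Exchange factors (GEFs) load GTP, GTPase-activating proteins (GAPs) end the signal, and the active form recruits effectors such as coats, tethers and motor adaptors to a particular membrane. Rabs are held on membranes by prenyl groups that a transferase attaches, whereas most Arfs carry a myristoyl group. Rabs mark compartments such as the endoplasmic reticulum, Golgi, endosomes and secretory vesicles. Arfs assemble vesicle coats, and Arls serve the Golgi, lysosome, microtubules, cilium and plasma membrane.

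The RNA came from dissected animal and vegetal hemispheres of oocytes of 2 frog species. The pigmented animal side contains the nucleus, while most yolk and the germ plasm lie on the vegetal side. For Xenopus laevis, stage VI oocytes of females A and B gave 2 batches each (A_t1, A_t2, B_t1 and B_t2), with 1 animal and 1 vegetal library per batch, hence 4 libraries per hemisphere. For Xenopus tropicalis, full grown oocytes of females 1 and 2 gave 1 animal and 1 vegetal library each, hence 2 per hemisphere. No label gives a treatment, mutation or transgene for any library, and the batches of a female are not separate animals. The comparison within each species asks which mRNAs differ in level between the hemispheres, and the comparison between species asks whether that difference is the same in both.

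The libraries held between 30416352 and 45235154 counts in X. laevis and between 7772801 and 28392285 in X. tropicalis, and the small GTPase models took between 0.380% and 0.457% of the counts of a library. Levels are given as CPM, the counts of a model scaled to a common library size, so a value is a share of the RNA of that hemisphere: a higher share and more RNA per hemisphere cannot be told apart. The counts of both species are listed by X. tropicalis gene model, so the L and S copies of the X. laevis genome have 1 value together. For 45 of the 72 symbols a table of X. laevis v10.1 genes lists both copies. Because CPM is not divided by transcript length, levels are compared between libraries and not between genes, and the species were scaled apart. The dissection was checked with 9 known vegetal and 4 known animal mRNAs. All of them passed the test at more than 2-fold in the labelled direction in both species. They were listed with earlier results of these data known, so their passing is not an independent check of the dissection. Of 11 oocyte markers 10 were found, with a summed level from 2076 to 2437 CPM in the animal and from 2767 to 3642 CPM in vegetal X. laevis libraries, and from 2488 to 2782 CPM and from 3753 to 3928 CPM in those of X. tropicalis. Of these 10, 7 were called vegetal and 0 animal in both species (median log2 fold change 0.44 in X. laevis and 0.32 in X. tropicalis), which is the direction of the vegetal Arl calls. The 10 follicle cell markers summed to between 1.85 and 3.84 CPM in X. laevis and to between 0.661 and 2.19 CPM in X. tropicalis, where cyp11a1, foxl2, fshr and hsd3b1 were at 0. The 10 blood and endothelium markers found summed to between 19.8 and 48.5 CPM in the animal and between 19.3 and 49.4 CPM in vegetal X. laevis libraries, and to between 11.5 and 19.2 CPM over the X. tropicalis libraries. The 7 connective tissue markers summed to between 46.1 and 105 CPM in the animal and between 79.4 and 173 CPM in vegetal X. laevis libraries, and to between 62.6 and 63.1 CPM and between 73.1 and 78.6 CPM in those of X. tropicalis, with 1 of them called vegetal in each species. The part of these markers in the results was not tested.

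Of the 72 models, 64 passed the filter on low counts in X. laevis and 56 in X. tropicalis. In X. laevis, 11 of the 64 were higher in vegetal and 7 higher in animal libraries at an adjusted p under 0.05, which is 17.2% and 10.9% of those tested. Among all 14517 tested X. laevis models the shares were 13.2% and 14.4% (27.7% in either direction, against 28.1% of the small GTPases), so the number of small GTPase mRNAs that differed was near the background. The median log2 fold change, vegetal over animal, was 0.06 over the 64 and -0.01 over all models. Scaling by library totals in place of TMM factors kept 11 vegetal calls and raised the animal calls to 11. Over all X. laevis models that scaling turned 1922 vegetal and 2095 animal calls into 1442 and 2619. In X. tropicalis, 10 of the 56 were vegetal (17.9%) and 9 animal (16.1%), against 15.6% and 17.3% of all 12916 tested models (33% in either direction, against 33.9%). There the medians were -0.03 and -0.01, and scaling by library totals gave 8 vegetal and 14 animal calls. Over all X. tropicalis models that scaling turned 2020 vegetal and 2236 animal calls into 1436 and 2743. Each of the 18 X. laevis and 19 X. tropicalis calls had its direction in every pair of libraries. The test that made the calls used these same pairs, so this is no separate support for them.

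**Figure D1:**
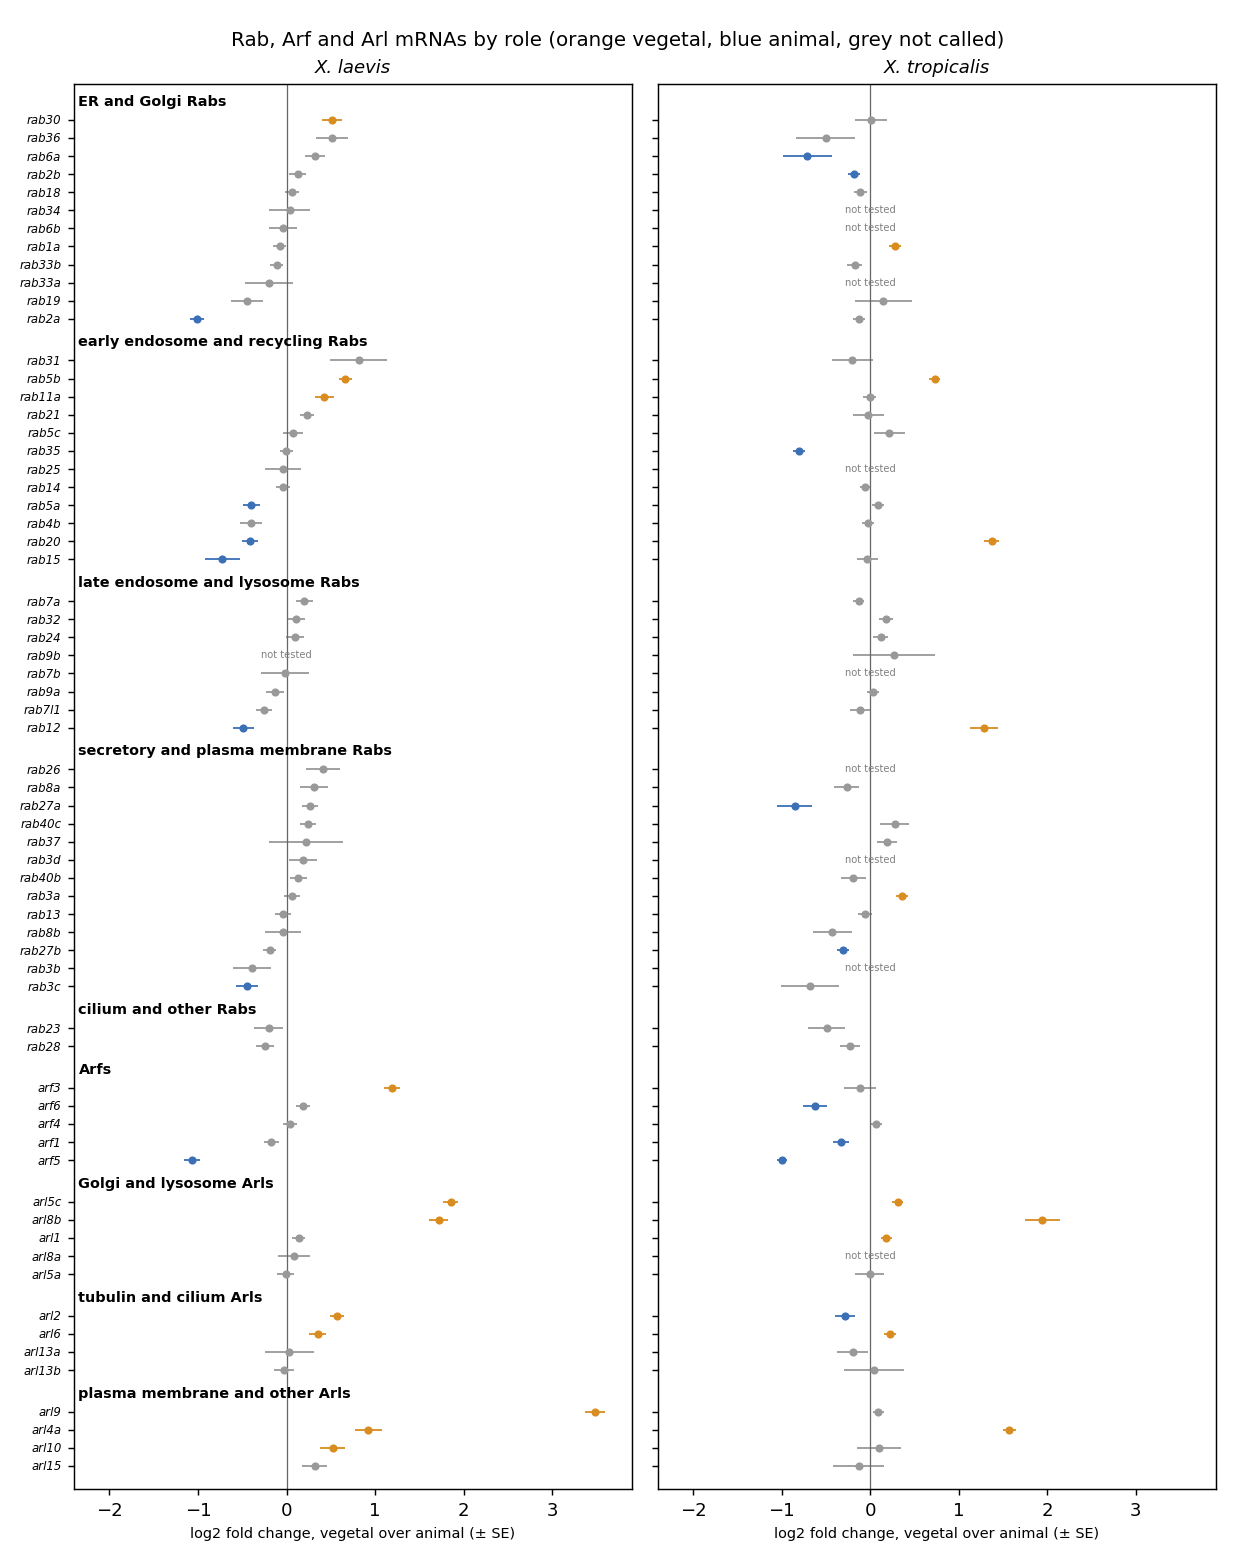
Log2 fold change of vegetal over animal libraries with its standard error for each tested Rab, Arf and Arl mRNA, grouped by the compartment the protein serves, in X. laevis (left, 4 pairs) and X. tropicalis (right, 2 pairs). Orange points were called vegetal and blue points animal at an adjusted p under 0.05. In X. laevis the Arl groups hold 7 orange points and no blue one, and arl9 lies farthest right at 3.49.

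Of the 11 vegetal X. laevis calls, 7 belonged to the Arl family. Of its 13 tested members 7 were vegetal and 0 animal, with a median log2 fold change of 0.35 and a lowest of -0.03, while 3 of 46 Rabs were vegetal and 6 animal (median -0.01) and 1 of 5 Arfs went each way (median 0.04). Over all tested X. laevis models 13.2% were vegetal and 14.4% animal. DESeq2 also called 7 Arls vegetal and 0 animal in X. laevis, and so did scaling by library totals. Without the replicate block, without batch A_t2, or with either female alone, the vegetal Arl count fell to 5, and without B_t2 to 6. The X. laevis Rab counts moved more between settings. DESeq2 gave 6 vegetal and 6 animal Rabs, so that the Arls were 7 of 14 vegetal calls. Batches A_t1 and B_t2 alone gave 11 vegetal and 4 animal Rabs, and the batches of each female summed gave 12 and 9, beside 7 and 8 vegetal Arls. Without A_t2, or without the block, 1 Rab went each way. Calls over all X. laevis models also fell there, from 1922 vegetal and 2095 animal to 797 and 914 without A_t2 and to 899 and 1130 without the block. In X. tropicalis 5 of 12 Arls were vegetal and 1 animal (median 0.10), 5 of 39 Rabs went each way (median -0.05), and 3 of 5 Arfs were animal with 0 vegetal (median -0.33). Over all tested X. tropicalis models 15.6% were vegetal and 17.3% animal. With scaling by library totals the X. tropicalis Arl counts were 3 vegetal and 1 animal, and the Rab counts 5 and 10. Calls over all X. tropicalis models moved from 2020 vegetal and 2236 animal to 1436 and 2743 with that scaling. There DESeq2 gave 3 vegetal and 0 animal Arls, and 5 and 2 Rabs. Without the pairing by female no X. tropicalis Arl or Rab was called. At a 2-fold limit, 4 X. laevis members were vegetal (6.25%, background 3.01%) and 2 animal (3.12%, background 3.58%). In X. tropicalis 4 were vegetal (7.14%, background 3.29%) and 0 animal by edgeR or DESeq2 (0%, background 3.63%), with arf5 just under the limit and past it when scaled by library totals.

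The X. laevis p-values rest on 4 pairs from 2 females and on a spread pooled over models, with 3 residual degrees of freedom per model and a prior of 4.79. In X. tropicalis the test had 1 residual degree of freedom and a prior of 162, so its p-values rest almost wholly on the pooled spread. Without the pairing of hemispheres by female, 1 of the 19 X. tropicalis calls remained, that of arf5. Without the pairing by batch, 9 of the 18 X. laevis calls remained. Calls over all tested models fell too when the pairing was dropped. In X. tropicalis 2020 vegetal and 2236 animal calls became 174 and 88, and in X. laevis 1922 and 2095 became 899 and 1130. With DESeq2, 12 of the 19 X. tropicalis calls remained, without those of arf1, arl1, arl2, arl6, rab27a, rab2b and rab6a. With the pairing dropped and 1 library left out, X. tropicalis values moved widely: over all alternatives the log2 fold change ran from 0.98 to 2.13 for arl4a, from 0.18 to 0.46 for arl5c, from -0.98 to -0.32 for arf6, from -0.55 to -0.12 for arl2 and from -1.42 to -0.44 for rab27a. Reads of close relatives such as arf1 and arf3, rab5a and rab5b, or rab27a and rab27b may have been shared between their models, so the values of these genes are uncertain to that extent.

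The mRNA of arl9 (model Xetrov72022029) had the largest difference of any small GTPase tested in X. laevis. Its level in the animal libraries was 14.6 (A_t1), 14.7 (A_t2), 9.36 (B_t1) and 8.95 CPM (B_t2), and in the vegetal libraries 137, 200.1, 100.5 and 103 CPM in the same order. The groups did not overlap, and both animal libraries of female A lay above those of female B. The log2 fold change was 3.49 ± 0.11 (SE, 4 pairs), or 11.2-fold, with an adjusted p of 2.65e-06 (edgeR quasi-likelihood test, Benjamini-Hochberg over all models). In X. tropicalis the arl9 levels were 137 and 147 CPM in the animal and 148 and 155 CPM in the vegetal libraries of females 1 and 2. There all 4 libraries were close together, and the log2 fold change of 0.09 ± 0.06 did not pass the test (adjusted p = 0.287). The fold changes of the species differed by 3.39 ± 0.16 on the log2 scale (adjusted p = 1.94e-05). The X. laevis gene table lists arl9 with an L copy only.

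The Golgi and lysosome Arls held both vegetal mRNAs of the next largest X. laevis differences. The protein of arl5c (Xetrov72017877) is a relative of the trans-Golgi Arl5 proteins, which recruit a tethering complex for vesicles from endosomes. Its X. laevis levels were 47.0 (A_t1), 59.1 (A_t2), 52.3 (B_t1) and 51.4 CPM (B_t2) in the animal and 178, 233, 187 and 163 CPM in vegetal libraries. No animal library reached a vegetal one, and the log2 fold change was 1.85 ± 0.09 (adjusted p = 8.47e-06). In X. tropicalis, arl5c stood at 231 and 189 CPM in the animal and 283 and 236 CPM in vegetal libraries of females 1 and 2. Those groups did not overlap either, but the difference was small, at 0.31 ± 0.06 (adjusted p = 1.06e-05), and differed from that of X. laevis by 1.54 ± 0.12 (adjusted p = 0.000189).

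The product of arl8b (Xetrov72011074) couples lysosomes to kinesin for transport towards the cell periphery. Its X. laevis levels were 40.4 (A_t1), 40.4 (A_t2), 38.1 (B_t1) and 32.8 CPM (B_t2) in the animal and 108, 133, 123 and 135 CPM in vegetal libraries. The groups lay far apart, with a log2 fold change of 1.72 ± 0.11 (adjusted p = 3.48e-05). In X. tropicalis the levels were low, at 4.30 and 2.09 CPM in the animal and 16.2 and 8.18 CPM in vegetal libraries of females 1 and 2. Female 1 was higher than female 2 in both hemispheres, each vegetal library exceeded both animal ones, and the log2 fold change of 1.94 ± 0.20 (adjusted p = 7e-17) differed from that of X. laevis by -0.23 ± 0.22 (adjusted p = 0.544). Its relative arl8a was at 0.08 ± 0.18 in X. laevis (adjusted p = 0.758) and held 2 counts over all X. tropicalis libraries. The trans-Golgi regulator arl1, which recruits golgin tethers, gave 0.14 ± 0.08 in X. laevis (adjusted p = 0.223) and 0.18 ± 0.07 in X. tropicalis (adjusted p = 0.0213), and arl5a was at -0.01 in both species.

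Among the plasma membrane and other Arls, arl4a (Xetrov72035139) was vegetal in both species. Its protein sits at the plasma membrane and recruits cytohesins, the GEFs of Arf6. In X. laevis it stood at 192 (A_t1), 226 (A_t2), 169.6 (B_t1) and 147 CPM (B_t2) in the animal and 435, 329, 252 and 387 CPM in vegetal libraries. The vegetal level of B_t1 was the lowest but still exceeded the animal level of A_t2, and the log2 fold change was 0.92 ± 0.15 (adjusted p = 0.00382). In X. tropicalis it stood at 31.4 and 59.8 CPM in the animal and 90.2 and 181 CPM in vegetal libraries of females 1 and 2. Female 2 was higher in both hemispheres, the groups did not overlap, and the log2 fold change was 1.57 ± 0.07 (adjusted p = 4.49e-47). The species difference of -0.64 ± 0.26 did not pass the test (adjusted p = 0.142). The X. laevis mRNA of arl10 (Xetrov72039901) rose from 14.7 ± 0.704 CPM in the animal to 21.4 ± 4.28 CPM in vegetal libraries (n = 4, each ± SD), with a log2 fold change of 0.52 ± 0.14 (adjusted p = 0.0274, or 0.139 without batch A_t2).

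The tubulin and cilium Arls gave smaller differences. The product of arl2 (Xetrov72011083) works with tubulin cofactor D in the folding of tubulin dimers. Its X. laevis levels were 69.6 (A_t1), 70.6 (A_t2), 71.7 (B_t1) and 65.8 CPM (B_t2) in the animal and 90.9, 108, 116 and 99.5 CPM in vegetal libraries. The groups did not overlap, and the log2 fold change was 0.57 ± 0.08 (adjusted p = 0.00212). In X. tropicalis arl2 went the other way, from 28.1 and 26.4 CPM in the animal to 18.6 and 24.7 CPM in vegetal libraries of females 1 and 2, with a log2 fold change of -0.28 ± 0.11 (adjusted p = 0.0359). That X. tropicalis call was also lost with DESeq2 and with either other filter on low counts, while the species difference was 0.88 ± 0.17 (adjusted p = 0.0111). The product of arl6 (Xetrov72031661) recruits the BBSome coat to ciliary membranes. Its log2 fold change was 0.35 ± 0.09 in X. laevis (46.2 ± 6.21 to 59.0 ± 9.29 CPM, n = 4, adjusted p = 0.026), where the libraries of the hemispheres overlapped, and 0.23 ± 0.07 in X. tropicalis (90.6 ± 2.32 to 106 ± 4.82 CPM, n = 2, adjusted p = 0.00516). The X. tropicalis call of arl6 was kept in 2 of 9 alternatives and was lost with library totals (adjusted p = 0.0528) and with DESeq2 (adjusted p = 0.155).

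**Figure D2:**
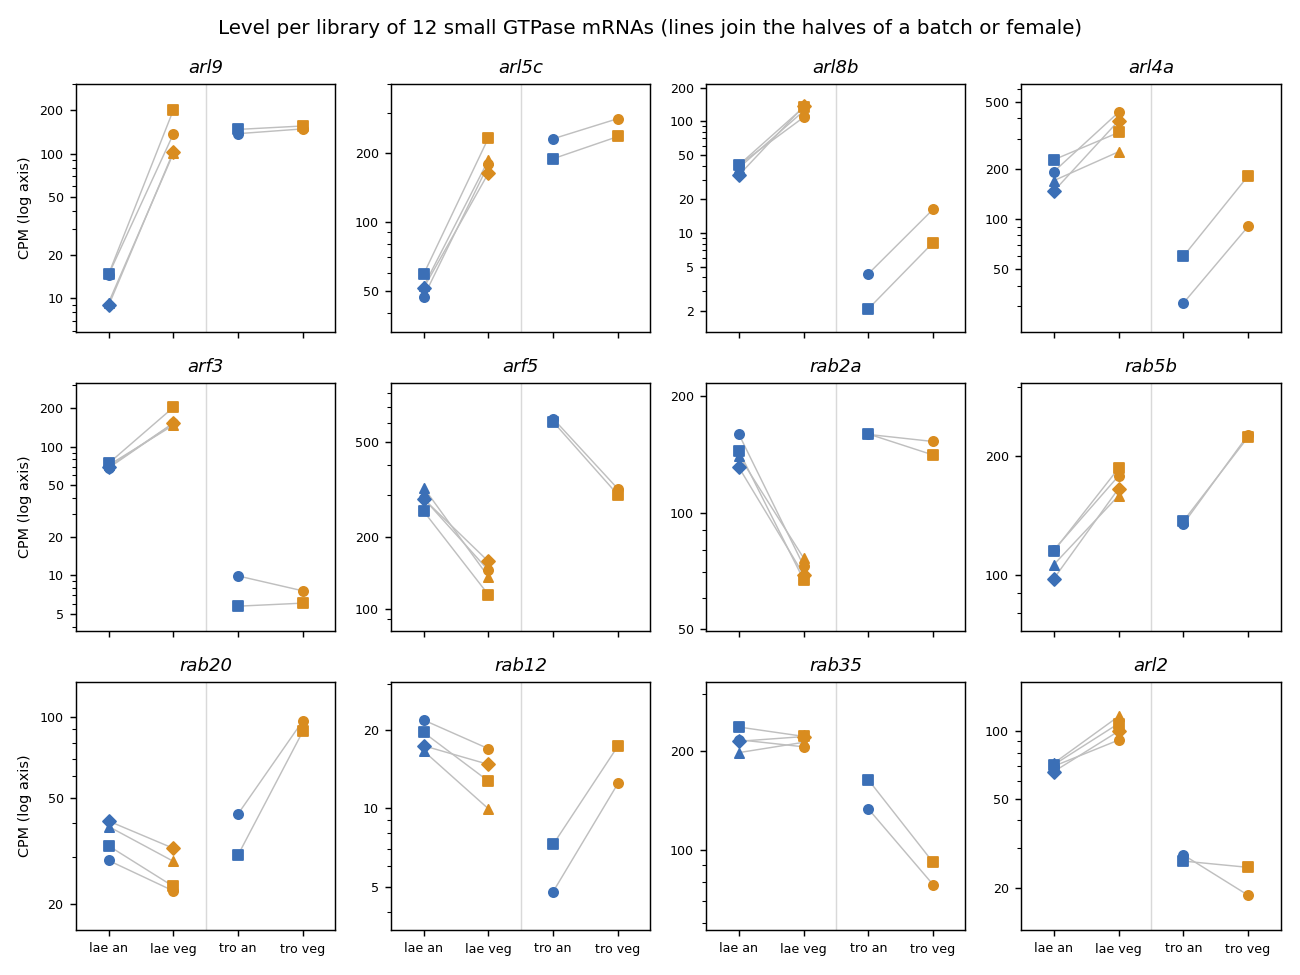
Level in CPM (log axis) of 12 of the described mRNAs in each of the 12 libraries, in blue for animal (an) and orange for vegetal (veg) libraries of X. laevis (lae) and X. tropicalis (tro), with lines joining the hemispheres of a batch or female. Circles are A_t1 or female 1, squares A_t2 or female 2, triangles B_t1 and diamonds B_t2. The arl9 lines climb steeply in X. laevis and are almost flat in X. tropicalis, and the rab20 and rab12 lines slope in opposite directions in the species.

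The Arfs went different ways within X. laevis. The class I Arf gene arf3 (Xetrov72031690), whose protein recruits coats at the trans-Golgi, stood at 68.3 (A_t1), 74.3 (A_t2), 71.9 (B_t1) and 69.4 CPM (B_t2) in the animal and 152, 202, 147 and 153 CPM in vegetal libraries. The animal libraries were within a narrow range and the vegetal library of A_t2 lay above the other 3. The log2 fold change was 1.19 ± 0.09 (adjusted p = 7.73e-05). In X. tropicalis arf3 was at 9.92 and 5.78 CPM in the animal and 7.60 and 6.10 CPM in vegetal libraries of females 1 and 2, overlapping, with a log2 fold change of -0.11 ± 0.18 (adjusted p = 0.69). The species differed by 1.31 ± 0.19 (adjusted p = 0.00327).

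The class II Arf gene arf5 (Xetrov72035212), which acts between the endoplasmic reticulum and the Golgi, was the small GTPase called animal in both species. In X. laevis it stood at 289 (A_t1), 255 (A_t2), 321 (B_t1) and 288 CPM (B_t2) in the animal and 144, 114, 136 and 157 CPM in vegetal libraries. In X. tropicalis it stood at 624 and 605 CPM in the animal and 317 and 299 CPM in vegetal libraries of females 1 and 2. In neither species did the groups overlap, and the log2 fold changes of -1.07 ± 0.09 (adjusted p = 0.000101) and -0.998 ± 0.06 (adjusted p = 7.85e-35) differed by -0.08 ± 0.13 (adjusted p = 0.761).

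The gene of the plasma membrane and recycling GTPase, arf6 (Xetrov72014880), was not called in X. laevis (0.19 ± 0.08, adjusted p = 0.105), with 61.0 to 65.8 CPM in the animal and 67.3 to 77.8 CPM in vegetal libraries. In X. tropicalis it fell from 23.3 and 14.6 CPM in the animal to 12.8 and 10.7 CPM in vegetal libraries of females 1 and 2 (-0.62 ± 0.13, adjusted p = 4.97e-05), and the species differed by 0.82 ± 0.15 (adjusted p = 0.0101). The COPI coat regulator arf1 (Xetrov72017868) was called animal in X. tropicalis (-0.33 ± 0.09, adjusted p = 0.00131), at 87.8 and 25.6 CPM in the animal and 60.9 and 23.4 CPM in vegetal libraries of females 1 and 2. Here the females lay farther apart than the hemispheres and the groups overlapped, and in fits without the pairing by female that left out 1 library the direction turned (0.70 without the animal library of female 1 and 0.11 without the vegetal library of female 2). In X. laevis arf1 was at -0.17 ± 0.08 (adjusted p = 0.15), and arf4 was at 0.04 in X. laevis and 0.07 in X. tropicalis, neither of which passed the test.

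The endoplasmic reticulum and Golgi Rabs held 1 vegetal and 1 animal call among 12 tested in X. laevis, and 1 vegetal and 2 animal calls among 9 in X. tropicalis. Of all models tested, 27.7% were called in X. laevis and 33% in X. tropicalis. The protein of rab2a (Xetrov72035108) works between the endoplasmic reticulum and the Golgi. Its X. laevis levels were 159.9 (A_t1), 145 (A_t2), 141 (B_t1) and 131 CPM (B_t2) in the animal and 72.9, 67.1, 76.3 and 69.1 CPM in vegetal libraries. The groups were well apart, with a log2 fold change of -1.01 ± 0.08 (adjusted p = 0.000104). The X. tropicalis levels of rab2a were 159 and 159.9 CPM in the animal and 153 and 141 CPM in vegetal libraries of females 1 and 2. That difference of -0.13 ± 0.06 did not pass the test (adjusted p = 0.122), and the species differed by -0.89 ± 0.13 (adjusted p = 0.00259). Its close relative rab2b, named after its values were seen, gave 0.12 ± 0.10 in X. laevis (adjusted p = 0.372) and -0.18 ± 0.06 in X. tropicalis (adjusted p = 0.0196).

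The other calls among these Rabs were small or came from low levels. The Golgi Rab gene rab6a (Xetrov72014974) fell in X. tropicalis from 3.39 and 3.27 CPM in the animal to 1.70 and 2.18 CPM in vegetal libraries (-0.71 ± 0.28, adjusted p = 0.0366), and stood at 13.7 to 14.8 CPM in the animal and 15.4 to 21.7 CPM in vegetal X. laevis libraries (0.32 ± 0.11, adjusted p = 0.0735). The X. tropicalis call was kept in 2 of 8 alternatives and had an adjusted p of 0.473 with DESeq2. The species differed by 1.03 ± 0.26 (adjusted p = 0.0319), a call that was lost in 5 of 9 alternatives. The gene of the anterograde transport GTPase rab1a (Xetrov72002207) was higher in vegetal X. tropicalis libraries, at 115 ± 3.70 and 141 ± 5.07 CPM (n = 2, 0.28 ± 0.07, adjusted p = 0.000163), and was at -0.08 ± 0.08 in X. laevis (adjusted p = 0.475). In X. laevis the Golgi Rab gene rab30, named after its values were seen, was vegetal by 0.51 ± 0.12 (adjusted p = 0.0153) with overlapping groups.

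The early endosome and recycling Rabs held 2 vegetal and 3 animal calls among 12 tested in X. laevis, and 2 and 1 among 11 in X. tropicalis. The shares called over all models, in either direction, were 27.7% and 33%. The rab5 paralogs, whose proteins govern fusion of early endosomes, did not move together. For rab5b (Xetrov72031516) the X. laevis levels were 116 (A_t1), 115 (A_t2), 106 (B_t1) and 97.8 CPM (B_t2) in the animal and 178, 186, 159 and 165 CPM in vegetal libraries. In X. tropicalis they were 135 and 137 CPM in the animal and 226 and 224 CPM in vegetal libraries of females 1 and 2. Neither species had overlapping groups, and the log2 fold changes of 0.67 ± 0.07 (adjusted p = 0.000529) and 0.73 ± 0.06 (adjusted p = 2.14e-21) differed by -0.07 ± 0.11 (adjusted p = 0.738). By contrast rab5a (Xetrov72035080) was animal in X. laevis, at 222 ± 44.0 CPM in the animal and 171 ± 46.9 CPM in vegetal libraries (n = 4, -0.40 ± 0.10, adjusted p = 0.0193), with overlapping groups and an adjusted p of 0.126 without A_t2 and 0.067 without B_t2. In X. tropicalis rab5a was at 0.09 ± 0.07 (adjusted p = 0.344), and rab5c was not called in either species (0.07 and 0.22).

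The mRNA of rab20 (Xetrov72031433), whose protein acts in the maturation of endosomes and phagosomes, was animal in X. laevis and vegetal in X. tropicalis. The X. laevis levels were 29.1 (A_t1), 33.0 (A_t2), 39.0 (B_t1) and 40.8 CPM (B_t2) in the animal and 22.3, 23.2, 28.9 and 32.3 CPM in vegetal libraries. Each pair fell, while the ranges overlapped because female B was higher in both hemispheres, and the log2 fold change was -0.41 ± 0.09 (adjusted p = 0.0107, or 0.0933 without batch A_t2). The X. tropicalis levels were 43.5 and 30.5 CPM in the animal and 97.1 and 88.6 CPM in vegetal libraries of females 1 and 2, without overlap, and the log2 fold change was 1.37 ± 0.08 (adjusted p = 2.57e-36). The species difference was -1.77 ± 0.15 (adjusted p = 0.000298).

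The fast recycling Rab gene rab35 (Xetrov72022465) differed between hemispheres in X. tropicalis, from 134 and 164 CPM in the animal to 78.6 and 91.9 CPM in vegetal libraries of females 1 and 2. The groups did not overlap, and the log2 fold change was -0.81 ± 0.07 (adjusted p = 1.61e-22). In X. laevis its 8 libraries ran from 198 to 237 CPM with no separation by hemisphere (0.00 in log2 to 2 decimals, adjusted p = 0.977), and the species differed by 0.79 ± 0.11 (adjusted p = 0.00292). The recycling Rab gene rab15 (Xetrov72014964) was animal in X. laevis, at 7.64 (A_t1), 6.80 (A_t2), 10.6 (B_t1) and 6.63 CPM (B_t2) in the animal and 5.85, 4.05, 3.77 and 5.32 CPM in vegetal libraries (-0.72 ± 0.20, adjusted p = 0.0302). The pair of B_t1 was the widest apart, and without A_t2 the adjusted p was 0.13. The recycling endosome Rab gene rab11a, named after its values were seen, was vegetal in X. laevis by 0.43 ± 0.11 (adjusted p = 0.0244) and at -0.01 ± 0.07 in X. tropicalis (adjusted p = 0.951).

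Of the late endosome and lysosome Rabs, rab12 was the member called in either species, with 7 tested in each (background 27.7% in X. laevis and 33% in X. tropicalis). The protein of rab12 (Xetrov72034601) directs cargo from recycling endosomes to lysosomes. Its X. laevis levels were 21.8 (A_t1), 19.5 (A_t2), 16.6 (B_t1) and 17.3 CPM (B_t2) in the animal and 16.9, 12.7, 9.94 and 14.7 CPM in vegetal libraries. The ranges overlapped slightly, each pair fell, and the log2 fold change was -0.49 ± 0.11 (adjusted p = 0.0171, or 0.117 without batch A_t2). The X. tropicalis levels were 4.79 and 7.27 CPM in the animal and 12.4 and 17.3 CPM in vegetal libraries of females 1 and 2, without overlap, with a log2 fold change of 1.29 ± 0.16 (adjusted p = 1.22e-12). The species difference was -1.79 ± 0.21 (adjusted p = 0.00119). The late endosome gene rab7a, whose protein governs fusion with lysosomes, gave 0.20 ± 0.10 in X. laevis (adjusted p = 0.162) and -0.13 ± 0.06 in X. tropicalis (adjusted p = 0.0892).

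The secretory and plasma membrane Rabs held 0 vegetal calls and 1 animal call among 13 tested in X. laevis, where 27.7% of all models were called, and 1 vegetal and 2 animal calls among 10 in X. tropicalis, where the share was 33%. The X. laevis call was rab3c (Xetrov72022268), a gene of regulated exocytosis, at 4.41 ± 0.439 CPM in the animal and 3.25 ± 0.478 CPM in vegetal libraries (n = 4, -0.45 ± 0.12, adjusted p = 0.0295), and it was kept in 4 of 13 alternatives, with an adjusted p of 0.155 without batch A_t2. In X. tropicalis the exocytosis gene rab3a (Xetrov72022322) stood at 97.2 and 101 CPM in the animal and 122 and 131 CPM in vegetal libraries (0.36 ± 0.07, adjusted p = 2.9e-06), and in X. laevis it was at 0.07 ± 0.09 (adjusted p = 0.609). The genes of the secretory granule Rabs rab27a (Xetrov72039994) and rab27b (Xetrov72022346) were both animal in X. tropicalis. For rab27a the levels were 11.7 and 5.92 CPM in the animal and 4.72 and 4.07 CPM in vegetal libraries of females 1 and 2 (-0.85 ± 0.20, adjusted p = 0.000173). That call was kept in 3 of 9 alternatives and was lost with DESeq2 (adjusted p = 0.0796). In X. laevis rab27a was at 0.27 ± 0.09 (adjusted p = 0.0585), and the species differed by 1.14 ± 0.23 (adjusted p = 0.0126). For rab27b the change was -0.31 ± 0.06 in X. tropicalis (adjusted p = 2.42e-05) and -0.19 ± 0.07 in X. laevis (adjusted p = 0.0819). The cilium and other Rabs, of which rab23 and rab28 were tested, gave no call in either species by edgeR.

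**Figure D3:**
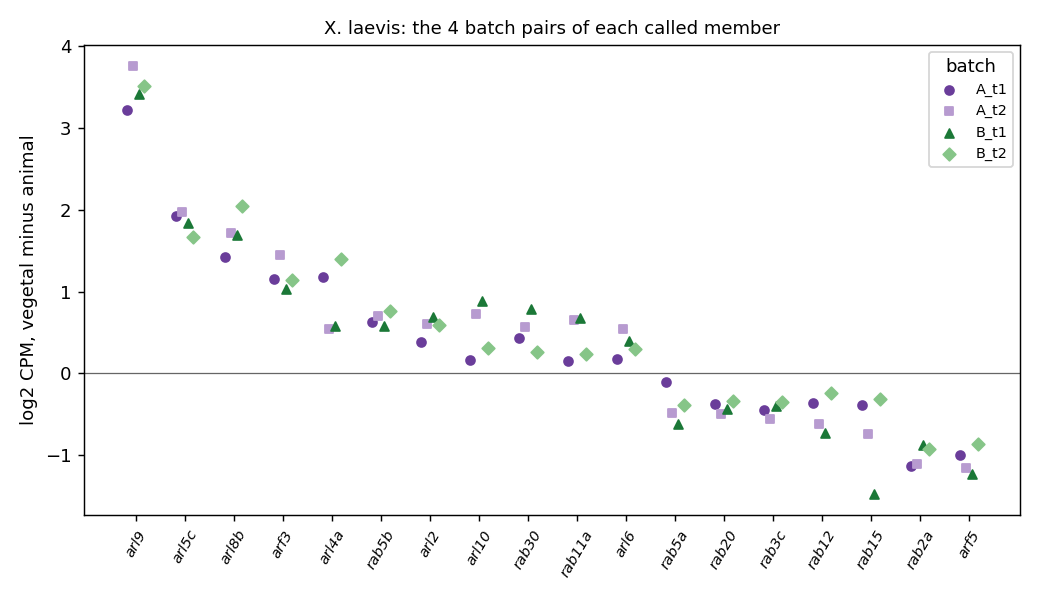
Vegetal minus animal log2 CPM of each X. laevis batch pair for the 18 called mRNAs, ordered by fold change, with purple for the batches of female A and green for those of female B. Every point lies on the side of zero of its call. The pairs of arl9, arl5c, arl8b, arf5 and rab2a are far from zero, while those of rab5a, rab11a and arl6 come close to it.

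Of the 18 X. laevis calls, 9 were kept in the same direction in all 14 alternative analyses of that comparison: arl9, arl5c, arl8b, arl4a, arl2, arf3, arf5, rab2a and rab5b. The other 9 were lost when batch A_t2 was left out, with adjusted p from 0.0918 (rab30) to 0.155 (rab3c) and log2 fold changes from -0.71 (rab15) to 0.51 (rab30). With A_t2 left out, calls over all X. laevis models also fell, from 1922 vegetal and 2095 animal to 797 and 914. The difference between hemispheres was also tested for a difference between females A and B. None of the 64 models passed that test (0%, background 0% of 14517 models), 0 of the 64 and 254 of all models (1.75%) had an unadjusted p under 0.05, and scaling by library totals also gave 0 calls. Differences between the batches of a female count as spread in this test, so it cannot show that the females agreed. For many called mRNAs A_t2 and B_t1 lay apart from A_t1 and B_t2. In A_t2 and B_t1 the pairs of arl10, arl6, rab11a, rab12, rab15, rab20, rab30 and rab5a had the larger absolute values. All of these calls were lost without A_t2, while rab3c, also lost, did not split so. Of the calls kept throughout, arl2 and arf5 also had the larger values in A_t2 and B_t1, and arl4a the smaller. The cause of this split was not tested. The pair values of arl4a were 0.54 and 0.57 against 1.18 and 1.40, and those of rab11a 0.65 and 0.68 against 0.15 and 0.24. Those of arl9 and rab5b did not split in this way. The overall levels of the females did differ for some mRNAs. In X. laevis 4 of the 64 were more than 2-fold apart between females, namely arl13a, rab33a, rab36 and rab3d, with ratios of B over A from 0.124 to 3.41. Levels of arl13a (0.271 CPM in A and 0.622 in B) and rab33a (0.715 and 0.289 CPM) were low. The share of all models that far apart was not computed for either species. The lowest ratio was that of rab36, at 3.05, 3.59, 5.28 and 5.44 CPM in the 4 libraries of female A and at 0.603, 0.437, 0.614 and 0.495 CPM in those of female B. In X. tropicalis the levels of arf1, arl8b and rab23 were more than 2-fold apart between females.

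Among the 55 mRNAs tested in both species, 27 were called in neither, 9 in X. laevis alone and 10 in X. tropicalis alone. Called vegetal in both were arl4a, arl5c, arl6, arl8b and rab5b, which is 9.09% of the 55 against 6.59% of the 11688 models tested in both. The X. tropicalis call of arl6, and with it the call in both species, was lost with library totals and with DESeq2. These 5 are 45.5% of the 11 vegetal calls of X. laevis and 50% of the 10 of X. tropicalis. Called animal in both was arf5 alone (1.82%, background 6.13%), and arl2, rab12 and rab20 were called in opposite directions (background 2.13%). The X. tropicalis call of arl2 was kept in 1 of 9 alternatives. The X. laevis calls of rab12 and rab20 were kept in 11 and 10 of 14, and both were lost without batch A_t2. Their X. tropicalis calls were kept in 4 and 6 of 9. The X. tropicalis calls of arl5c and rab5b were kept in 4 of 9, that of arl8b in 5, arl4a in 6 and arf5 in 7. Each loss for these 7 X. tropicalis calls came in a fit without the pairing by female. Across the 55 genes, which are not independent replicates and share their libraries, the log2 fold changes of the species had a Pearson r of 0.266 and a Spearman rho of 0.180, with the same sign in 32 (58.2%). Across all 11688 models the values were 0.506 and 0.340, with the same sign in 61.4%.

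The difference between species was itself called for 11 of the 55 (20%, background 12.5%). For 8 of them the vegetal over animal ratio was higher in X. laevis (14.5%, background 6.7%): arl9, arl5c, arf3, rab27a, rab6a, arl2, arf6 and rab35. For rab12, rab20 and rab2a it was higher in X. tropicalis (5.45%, background 5.77%). The species test assumes an equal spread in both, while the libraries of X. laevis varied more (biological coefficient of variation 0.132) than those of X. tropicalis (0.0468). Of the 11, arl9, arl5c, rab12 and rab20 were kept in all 10 alternatives, and 5 remained without X. tropicalis female 1.

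**Figure D4:**
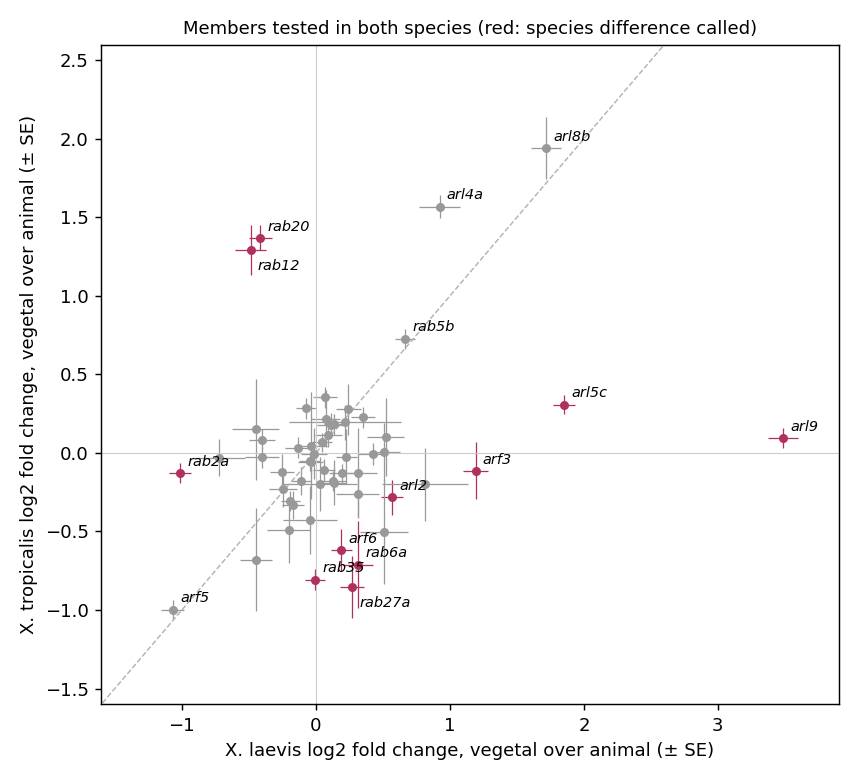
Log2 fold change of vegetal over animal libraries in X. laevis (horizontal axis) and X. tropicalis (vertical axis) with standard errors, for the 55 mRNAs tested in both, with a dashed line of equal values. Red points had a species difference at an adjusted p under 0.05. The grey points arl8b, arl4a, rab5b and arf5 lie near the line, while arl9 and arl5c lie far to its right and rab20 and rab12 far above it.

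Members that failed the filter were close to absent from the libraries. In X. laevis these 8 were arl11, arl14, arl4c, rab38, rab39, rab39b, rab44 and rab9b, with 0 to 51 counts over all 8 libraries. In X. tropicalis the 16 were arl11, arl14, arl4c, arl8a, rab25, rab26, rab33a, rab34, rab38, rab39, rab39b, rab3b, rab3d, rab44, rab6b and rab7b, with 0 to 31 counts over all 4 libraries. No count of arl14 was seen in any of the 12 libraries, which allows a level of up to 0.00958 CPM in X. laevis and 0.0431 CPM in X. tropicalis, as a limit for counting error only.

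The genes that load, switch off or read these GTPases were examined as lists, against the same backgrounds of 13.2% vegetal and 14.4% animal calls in X. laevis and 15.6% and 17.3% in X. tropicalis. Of 6 tested genes of Rab prenylation and recycling, 0 were vegetal and 1 animal in X. laevis, and 1 and 1 in X. tropicalis. Of the Rab GEFs, 3 of 38 were vegetal and 13 animal in X. laevis (median log2 fold change -0.19), and 6 of 37 and 11 in X. tropicalis (median -0.13). Of 32 Rab GAPs, 4 were vegetal and 12 animal in X. laevis (median -0.25), and 6 and 10 in X. tropicalis (median -0.20). Of the Rab effectors, 3 of 48 were vegetal and 10 animal in X. laevis (median -0.03), and 8 of 43 and 12 in X. tropicalis (median -0.08). Without batch A_t2 the X. laevis counts were 2 vegetal and 4 animal Rab GEFs, 2 and 6 Rab GAPs, and 2 and 0 Rab effectors. Over all X. laevis models that setting gave 797 vegetal and 914 animal calls, against 1922 and 2095 with all batches. Without B_t2, and with either female alone, the Rab effectors were 2 and 2. In X. tropicalis DESeq2 gave 3 vegetal and 3 animal Rab GEFs, 2 and 6 Rab GAPs, and 3 and 6 Rab effectors. Over all X. tropicalis models DESeq2 gave 1019 vegetal and 1095 animal calls, against 2020 and 2236 by edgeR. Scaling by library totals there gave 1 vegetal and 4 animal genes of prenylation and recycling, and 3 and 14 Rab GAPs. It gave 1436 vegetal and 2743 animal calls over all X. tropicalis models. Without the pairing by female the Rab GAPs held 2 vegetal calls and 1 animal call, and the other Rab lists none by edgeR.

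Among these regulators, tbc1d1 and tbc1d2b, which belong to the TBC domain GAPs, were vegetal in both species. Their log2 fold changes were 0.93 ± 0.12 and 1.05 ± 0.11 in X. laevis and 1.69 ± 0.12 and 1.99 ± 0.11 in X. tropicalis, in the order named. The GAP genes rabgap1 and tbc1d7 were animal in both, at -1.41 ± 0.11 and -1.37 ± 0.12 in X. laevis and -0.53 ± 0.09 and -0.83 ± 0.14 in X. tropicalis. In the species test the changes differed for tbc1d1 (-0.77 ± 0.19, adjusted p = 0.0279) and tbc1d2b (-0.93 ± 0.17, adjusted p = 0.00819). They also differed for rabgap1 (-0.88 ± 0.17, adjusted p = 0.0103) but not for tbc1d7 (-0.54 ± 0.21, adjusted p = 0.138). In X. laevis mon1a, part of the GEF that activates Rab7, was animal, from 16.0 ± 0.889 CPM in the animal to 3.98 ± 2.39 CPM in vegetal libraries (n = 4, -2.16 ± 0.31, adjusted p = 0.00194), and it was at -0.27 ± 0.15 in X. tropicalis (adjusted p = 0.157). The effector gene plekhm2, whose protein links Arl8 to kinesin, was animal in both species (-0.39 ± 0.08 and -0.77 ± 0.15), opposite to arl8b. Other Rab regulators called at least 2-fold in X. laevis were sbf2 (1.63 ± 0.14) and mical3 (1.81 ± 0.14), both vegetal. Animal ones were dennd3 (-1.16 ± 0.14), dennd2a (-1.04 ± 0.21, 221 counts in all) and tbc1d19 (-1.03 ± 0.10). In X. tropicalis sytl1 was vegetal (1.38 ± 0.31, 149 counts). There tbc1d14 (-1.40 ± 0.07), appl2 (-1.03 ± 0.10) and dennd2a (-1.23 ± 0.33, 142 counts) were animal. At less than 2-fold, mical3 was also called vegetal in X. tropicalis (0.36) and tbc1d14 animal in X. laevis (-0.42).

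**Figure D5:**
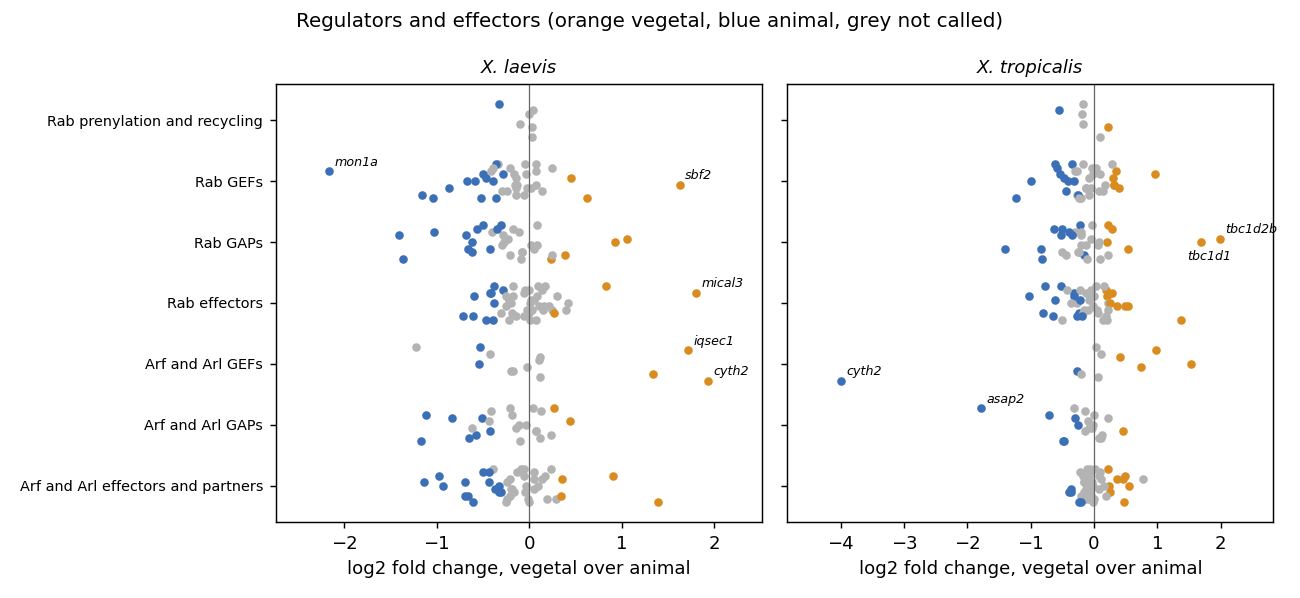
Log2 fold change of vegetal over animal libraries for the tested genes of 7 lists of regulators and effectors in X. laevis (left) and X. tropicalis (right). Each point is 1 gene, orange where called vegetal, blue where called animal and grey otherwise. The point of cyth2 lies at 1.94 for X. laevis and at -4.00 for X. tropicalis.

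Of the GEFs of Arfs and Arls, 3 of 13 were vegetal and 2 animal in X. laevis (median -0.02), and 4 of 10 and 2 in X. tropicalis (median 0.09). In X. tropicalis the counts were 2 vegetal and 1 animal with DESeq2, and 0 and 1 without the pairing by female. With a mean of at least 5 CPM they were 1 and 1 of 5 tested. The genes iqsec1 and iqsec2, whose proteins activate Arf6, were vegetal in both species. Their log2 fold changes were 1.72 ± 0.11 and 1.34 ± 0.14 in X. laevis and 1.53 ± 0.30 and 0.99 ± 0.27 in X. tropicalis. In X. tropicalis iqsec1 held 145 counts in all, at 1.52 ± 1.12 CPM in the animal and 4.24 ± 2.71 CPM in vegetal libraries (n = 2, each ± SD). The cytohesin gene cyth2, whose protein is recruited by Arl4 and activates Arf6, ran from 27.7 to 35.3 CPM in the animal and from 103 to 137 CPM in vegetal X. laevis libraries (1.94 ± 0.10, adjusted p = 1.24e-05). In X. tropicalis it ran from 2.89 to 3.62 CPM in the animal and from 0.131 to 0.236 CPM in vegetal libraries, with 145 counts in all (-4.00 ± 0.46, adjusted p = 9.13e-14), and the species differed by 5.96 ± 0.33 (adjusted p = 4.7e-05). Of the Arf and Arl GAPs, 2 of 24 were vegetal and 7 animal in X. laevis (median -0.16), and 1 of 19 and 6 in X. tropicalis (median -0.10), among them asap2, animal in both (-1.16 ± 0.10 and -1.78 ± 0.16). Of 44 effectors and partners, 4 were vegetal and 14 animal in X. laevis (median -0.17), and 8 and 5 in X. tropicalis (median -0.05). In X. tropicalis the balance of these 44 turned to 7 vegetal and 9 animal with library totals. The calls over all models there became 1436 vegetal and 2743 animal, from 2020 and 2236. For these 44 the X. tropicalis counts were 3 and 2 with DESeq2 and 0 and 0 without the pairing by female. In X. laevis they were 2 and 7 without batch A_t2, where the Arf and Arl GAPs held 0 vegetal and 3 animal calls. In X. laevis the BBSome subunit gene bbs2 (-0.97 ± 0.08) and pde6d (-1.14 ± 0.17), whose protein carries prenylated cargo released by Arl2 and Arl3, were animal, opposite to the X. laevis calls of arl6 and arl2. The partners did not all go that way. The gene arl6ip6 was vegetal in X. laevis (1.39 ± 0.12) and in X. tropicalis (0.48). Of the other BBSome genes listed, bbs7 (-0.44), bbs5 (-0.32), ttc8 (-0.24), bbs9 (-0.20) and bbs1 (-0.18) were negative in X. laevis. Only bbs4 (0.19) was positive. The gene bbs5 was called animal in X. laevis and vegetal in X. tropicalis (0.23). The GAP gene agap2 was animal in both species (-1.11 ± 0.18 in X. laevis and -0.47 in X. tropicalis).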

How the data were processed

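RNA-seq libraries of animal and vegetal oocyte hemispheres, 8 of X. laevis and 4 of X. tropicalis, were analysed from the raw read counts per gene model that the authors deposited for each library, with no normalization. The labels' protocols state manual dissection, phenol-chloroform extraction and standard Illumina libraries. Bowtie2 2.1.0, edgeR and DESeq were used, per the submitters' processing notes. Genome build, counting program, strand and the number of oocytes per library are not given in the sources at hand, so overlapping or antisense genes may share reads. Precision is limited by depth, which ran from 30416352 to 45235154 counts in X. laevis and from 7772801 to 28392285 in X. tropicalis.

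Counts were filtered with filterByExpr per species (14517 and 12916 models kept), TMM-scaled and tested by quasi-likelihood F test in edgeR 4.0.16 (R 4.3.3), with p-values adjusted by Benjamini-Hochberg over all models. The block was the batch in X. laevis and the female in X. tropicalis, which the labels give for both hemispheres. As a check, the deviations from the group means of the hemispheres of a pair had a correlation of 0.701 to 0.844 in X. laevis, and 0.797 in X. tropicalis. Hemispheres from different batches of the same X. laevis female gave 0.755 to 0.833. The check thus shows that hemispheres of a female go together, and cannot tell pairing by batch from pairing by female. Standard errors come from the F statistic. The species test used the 11688 models that passed in both species. CPM uses TMM-scaled library sizes, and log2 CPM of a pair a prior count of 2. Alternatives were library totals, no filter or a mean of at least 5 CPM, DESeq2 1.42.0, no block, single females, pairs of batches, and leaving out each replicate. P-values of the blocked fits measure how far the difference between hemispheres varies from pair to pair of these libraries. That spread is pooled in part over models in X. laevis and almost wholly in X. tropicalis. The X. laevis pairs include 2 batches of each female. Lists were described by counts and medians, with no set test. The fits were also run on simulated data with known changes. Those counts were drawn without differences between batches or females, so that run does not bear on the pairing.

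The members, role groups, marker and regulator lists were chosen with earlier results of these data known. Named genes are the 8 vegetal and 8 animal calls per species with the largest change and 1 direction in every pair, every call of at least 2-fold, every species difference, and every mRNA called in the same direction in both species. Named regulators were all calls of at least 2-fold and some of the 2 lowest adjusted p per list and species. Others were named after their values were seen (plekhm2 among them). Figures were drawn with matplotlib 3.10.9.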

Additional observations from a re-analysis of the deposited data

Results flagged for a closer look

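In X. laevis the vegetal library of batch A_t2 stood apart for arf3, at 202 CPM against 147 to 153 CPM in the other 3 vegetal libraries. This was 1 of 72 groups of 4 values examined in this way for the named genes, and chance gives about 1 in 20. Without A_t2 the log2 fold change of arf3 remained called.

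The difference between hemispheres differed between the species, by the test of that difference in edgeR, for 11 mRNAs. The X. laevis minus X. tropicalis difference in log2 fold change was 3.39 for arl9, 1.54 for arl5c, 1.31 for arf3, 1.14 for rab27a, 1.03 for rab6a, 0.88 for arl2, 0.82 for arf6 and 0.79 for rab35. It was -1.79 for rab12, -1.77 for rab20 and -0.89 for rab2a. X. laevis reads were counted on X. tropicalis models and the species differ in depth and in the number of libraries, and the part of these in the differences was not tested.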

How the results depend on the processing

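The 18 X. laevis calls became 9 without the replicate block, 10 with female B alone and 31 with the batches of each female summed, an alternative chosen after seeing the data; leaving out 1 replicate gave 9 (without A_t2) to 22. The 11 vegetal calls became 7 without the block or with female B alone, 19 with batches A_t1 and B_t2 alone, 21 summed, and 7 to 15 without 1 replicate. The 7 animal calls became 11 with library totals, 2 without the block, 4 with female A and 3 with female B alone, and 2 to 8 without 1 replicate. The 19 X. tropicalis calls became 12 with DESeq2, 1 without the block, and 0 to 5 without 1 library and the block; the 10 vegetal calls became 0 without the block and 0 to 3 without 1 library, and the 9 animal calls 14 with library totals, 4 with DESeq2, 1 without the block and 0 to 2 without 1 library. The 11 species differences became 5 (without X. tropicalis female 1) to 12 without 1 replicate; the 8 higher in X. laevis became 5 without the block and 3 to 9 without 1 replicate, and the 3 higher in X. tropicalis 2 to 4. In X. tropicalis arf1 turned to 0.70 without the animal library of female 1 and to 0.11 without the vegetal library of female 2, both without the block. A lone library there was assumed to vary like the others. Calls over all tested models moved with the settings too. In X. laevis the 1922 vegetal and 2095 animal calls became 1442 and 2619 with library totals, and 899 and 1130 without the block. They became 874 and 1139 with female B alone, 797 and 914 without A_t2, and 3194 and 3205 summed. In X. tropicalis the 2020 and 2236 calls became 1436 and 2743 with library totals. They became 1019 and 1095 with DESeq2 and 174 and 88 without the block. The causes were not tested. Leaving out a replicate leaves fewer samples. Counts were low for rab3c, with 110 to 204 per X. laevis library, and in X. tropicalis for rab6a, with 13 to 94 per library.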
